A study of Bos taurus with 48 samples.

Results

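CD1A (ENSBTAG00000038263) and MMP28 (ENSBTAG00000006086) are 2 of the 24616 genes counted in whole blood RNA of dairy calves sampled before and after weaning. Both were chosen by measured values of these libraries, namely the change of each calf from d -14 and the difference in level between breeds. Those values are therefore given as a description, without a test. Of the 12677 genes that passed the filter on low counts (CPM, the counts scaled to a common library size, above 1 in 8 or more libraries), both were members. MMP28 exceeded 1 CPM in 45 of 45 libraries. CD1A exceeded it in 18 of 24 libraries of Holstein-Friesian (H-F) calves and in 6 of 21 libraries of Jersey (J) calves, so it passed mainly through the breed in which it was higher.

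CD1A is a group 1 CD1 molecule, a relative of MHC class I that binds lipids and displays them to T cells. In mammals it is known from immature thymocytes and from some dendritic cells, and cattle carry several related CD1 genes. MMP28, also called epilysin, is a secreted zinc-dependent endopeptidase, the matrix metalloproteinase known from skin keratinocytes, testis and some leukocytes, and it is activated by removal of its propeptide by furin-like convertases.

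The animals were bull calves of both breeds, group housed and fed individually, and weaned gradually by lowering milk replacer from 6 l to 0 l over 14 days, d -13 to d 0. Jugular blood was taken from every calf at d -14 before weaning began and again at d 1 and d 8, so d -14 of the same calf was the control, and no unweaned group of the later days was compared. Day relative to weaning and age could not be told apart within a breed. All H-F calves shared a farm of origin, the J calves were from other farms and older on arrival, and all were vaccinated, so breed, herd of origin and age could not be told apart either. The concentrate offered before weaning was limited for H-F calves and ad libitum for J calves, and the H-F limit was raised after weaning. The paper states that H-F calves did not eat up to their limit. The values are for 8 H-F calves and 7 J calves in 45 libraries, with J calf 85 given apart because the study removed an unnamed J calf, which was worked out by setting the deposited counts beside its tables. Calf numbers are those of the labels.

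Library totals ran from 28088019 to 39095624 counts (median 33666332), of which ERCC spike-in RNA took 0.174% to 0.322%. CPM values are scaled by TMM library sizes. A CD1A level near 1 CPM rested on few reads, 33 to 37 in J calves 9, 13 and 60 on d -14, and the libraries with least CD1A held 3 to 6 reads of it. At the median count, counting error alone was 11.5% to 20.9% of the CD1A level across the 6 groups and 4.55% to 6.81% of the MMP28 level. In whole blood, fewer cells of a type and less RNA per cell cannot be told apart.

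CD1A was lower on d 1 and d 8 than on d -14 in each of the 8 H-F calves. On d -14 its lowest level was 0.194 CPM in calf 48, the median was 2.15 CPM and the highest was 8.92 CPM in calf 33 (mean 3.13 ± 2.77, SD, n = 8). On d 1 the level ran from 0.138 CPM in calf 48 through a median of 1.54 CPM to 4.03 CPM in calf 33 (mean 1.82 ± 1.33). On d 8 it ran from 0.149 CPM in calf 48 through a median of 1.52 CPM to 3.31 CPM in calf 33 (mean 1.72 ± 1.17). The days overlapped in part: on d -14 calves 27 and 33 lay above the highest level of d 1, and these and calf 32 above the highest level of d 8, while the other calves lay within the later ranges. The highest calf was 45.9 times the lowest on d -14.

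As a ratio to d -14, the widest differences of H-F calves were in calves with high and low starting levels alike. Calf 33 went from 8.92 CPM to 4.03 CPM and 3.31 CPM, and calf 27 from 4.94 CPM to 2.30 CPM and 2.72 CPM. Calf 25, which started low at 0.881 CPM, was at 0.431 CPM and 0.345 CPM, or 0.489 and 0.391 of its own d -14 level. Calf 32 started at 3.72 CPM and kept the largest share of its level, at 3.26 CPM on d 1 (0.875) and 2.90 CPM on d 8 (0.780).

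The other H-F calves lay between these. Calves 20, 49 and 56 started within a narrow span, between 2.05 and 2.202 CPM, and stood at 1.51, 1.26 and 1.52 CPM on d 8. Calf 48 held 6 reads of CD1A on d -14 and 5 reads on each of d 1 and d 8, so its lower CPM came from a difference of a single read and from larger libraries on the later days. Of their own starting level, the 8 calves held between 0.452 and 0.875 on d 1 (median 0.667) and between 0.371 and 0.780 on d 8 (median 0.650).

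On the log2 CPM scale (prior count 2), the paired change of CD1A in H-F calves averaged -0.65 ± 0.35 to d 1 (SD, n = 8) and -0.72 ± 0.41 to d 8. The 95% exact counting interval of the ratio lay below 1 in 5 of 8 calves on either day, and it reached past 1 in calves 20, 32 and 48 on d 1 and in calves 32, 48 and 56 on d 8. Among all genes tested, 2.61% were lower in every H-F calf on d 1 and 2.62% on d 8. These were 331 and 332 genes, CD1A among them.

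**Figure D1:**
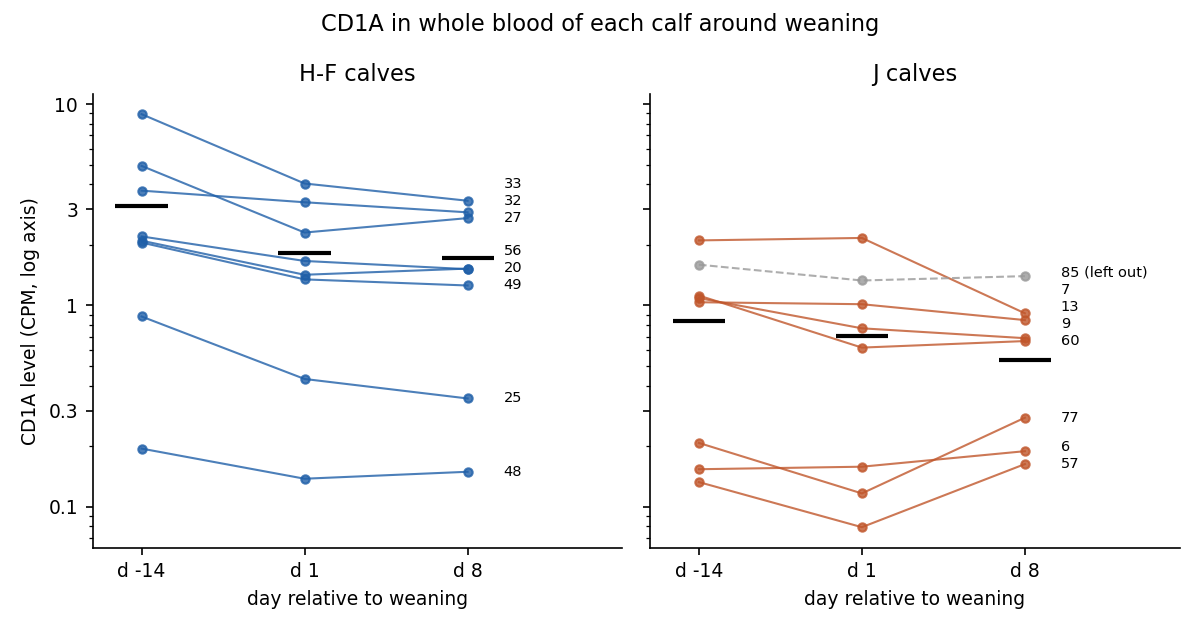
CD1A level in CPM on a log axis, by day, with a line for each calf and its number at the right, H-F calves on the left and J calves on the right. Black bars are means over calves, and J calf 85, drawn dashed, is not in the mean. All 8 H-F lines end below their start, while of the 7 J lines 4 end below and 3 above it. The H-F lines rarely cross, and the J lines cross more often.

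In J calves CD1A was low on every day and its change was uneven. On d -14 the lowest level was 0.133 CPM in calf 57, the median 1.04 CPM and the highest 2.10 CPM in calf 7 (mean 0.835 ± 0.724, SD, n = 7). On d 1 the level ran from 0.0791 CPM in calf 57 through a median of 0.617 CPM to 2.16 CPM in calf 7 (mean 0.703 ± 0.739). On d 8 it ran from 0.163 CPM in calf 57 through 0.665 CPM to 0.914 CPM in calf 7 (mean 0.534 ± 0.318). The J calves fell into a set of 4, calves 7, 9, 13 and 60, above 1 CPM on d -14, and a set of 3, calves 6, 57 and 77, at or below 0.207 CPM with 4 to 7 reads each.

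The paired change of CD1A in J calves averaged -0.33 ± 0.34 to d 1 (SD, n = 7), with 5 calves lower and 2 higher. To d 8 it averaged -0.28 ± 0.57, with 4 calves lower and 3 higher. The 3 that were higher on d 8 were calves 6, 57 and 77, those with the fewest reads, which went from 5, 4 and 7 reads to 6, 5 and 10. Only calf 7 moved beyond its counting interval to d 8, from 68 reads at 2.10 CPM to 32 reads at 0.914 CPM. Without calf 7 the mean paired change to d 8 was -0.14, and the fitted J change was -0.39 in place of -0.63 on the log2 scale. J calf 85, left out of these values, was at 1.59 CPM on d -14, 1.33 CPM on d 1 and 1.40 CPM on d 8.

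MMP28 went the other way and was higher on d 1 and d 8 than on d -14 in each of the 8 H-F calves. On d -14 its lowest level was 4.60 CPM in calf 48, the median 6.49 CPM and the highest 8.38 CPM in calf 20 (mean 6.53 ± 1.57, SD, n = 8). On d 1 it ran from 7.18 CPM in calf 56 through 9.45 CPM to 10.9 CPM in calf 27 (mean 9.30 ± 1.42). On d 8 it ran from 8.05 CPM in calf 32 through 10.7 CPM to 12.9 CPM in calf 25 (mean 10.7 ± 1.87). The ranges of d 1 and d 8 overlapped widely, while of the d -14 levels only those of calves 20, 27 and 49, at 8.38, 8.06 and 8.24 CPM, reached the range of d 8.

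The calf with the lowest starting level had the widest difference. Calf 48 went from 4.60 CPM to 8.62 CPM on d 1 and 12.02 CPM on d 8, which was 2.61 times its own d -14 level. Calf 33 went from 4.99 CPM to 8.35 CPM and 10.2 CPM, and calf 25 from 6.80 CPM to 10.5 CPM and 12.9 CPM. The smallest difference on d 8 was in calf 49, from 8.24 CPM to 10.5 CPM on d 1 and 10.3 CPM on d 8.

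The remaining H-F calves lay between these. On d 8 calf 27 reached 12.8 CPM and calf 20 reached 11.1 CPM, while calves 32 and 56 stood lowest at 8.05 and 8.24 CPM. As a ratio to d -14, MMP28 was between 1.16 and 1.87 on d 1 (median 1.45) and between 1.25 and 2.61 on d 8 (median 1.60). The paired change on the log2 CPM scale averaged 0.53 ± 0.24 to d 1 (SD, n = 8) and 0.72 ± 0.36 to d 8. It lay beyond the counting interval in 7 of 8 calves on d 1, all except calf 56, and in 8 of 8 on d 8. Of all genes tested, 2.6% were higher in every H-F calf on d 1 and 2.78% on d 8.

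**Figure D2:**
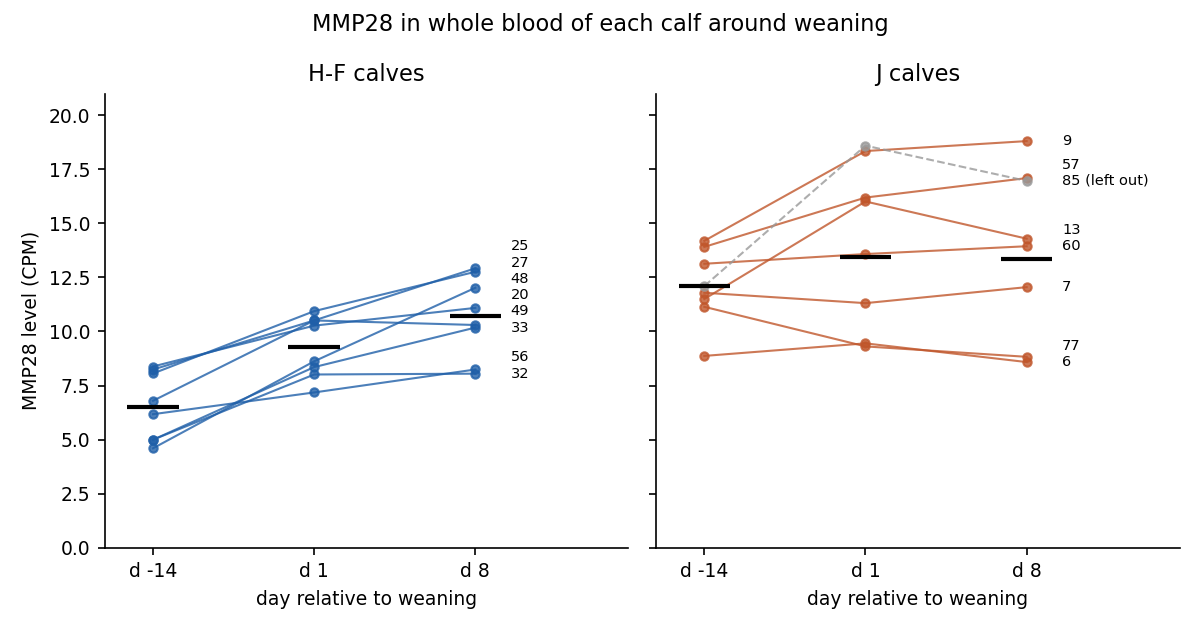
MMP28 level in CPM by day, with a line for each calf and its number at the right, H-F calves on the left and J calves on the right. Black bars are means over calves, and J calf 85, drawn dashed, is not in the mean. The H-F means climb from 6.53 to 10.7 CPM, and on d -14 every H-F calf lies below every J calf.

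In J calves MMP28 started higher and its change went both ways. On d -14 it ran from 8.87 CPM in calf 6 through a median of 11.8 CPM to 14.2 CPM in calf 9 (mean 12.1 ± 1.85, SD, n = 7). On d 1 it ran from 9.31 CPM in calf 77 through 13.6 CPM to 18.3 CPM in calf 9 (mean 13.5 ± 3.55). On d 8 it ran from 8.59 CPM in calf 6 through 13.9 CPM to 18.8 CPM in calf 9 (mean 13.4 ± 3.87). The 3 days overlapped, and the J calves lay farther apart on d 1 and d 8 than on d -14.

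The paired change of MMP28 in J calves averaged 0.13 ± 0.25 to d 1 and 0.11 ± 0.25 to d 8 (SD, n = 7), and on either day 5 calves were higher and 2 lower. These means rested on single calves: to d 1 the mean was 0.068 without calf 13 and 0.19 without calf 77, and to d 8 it was 0.058 without calf 9 and 0.18 without calf 77. Calves 9, 13 and 57 were higher beyond their counting interval on both days. Calf 9 went from 14.2 CPM to 18.3 and 18.8 CPM. Calf 77 was lower beyond its interval on both days, from 11.1 CPM to 9.31 and 8.83 CPM. J calf 85, left out, was at 12.1 CPM on d -14, 18.6 CPM on d 1 and 16.96 CPM on d 8.

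**Figure D3:**
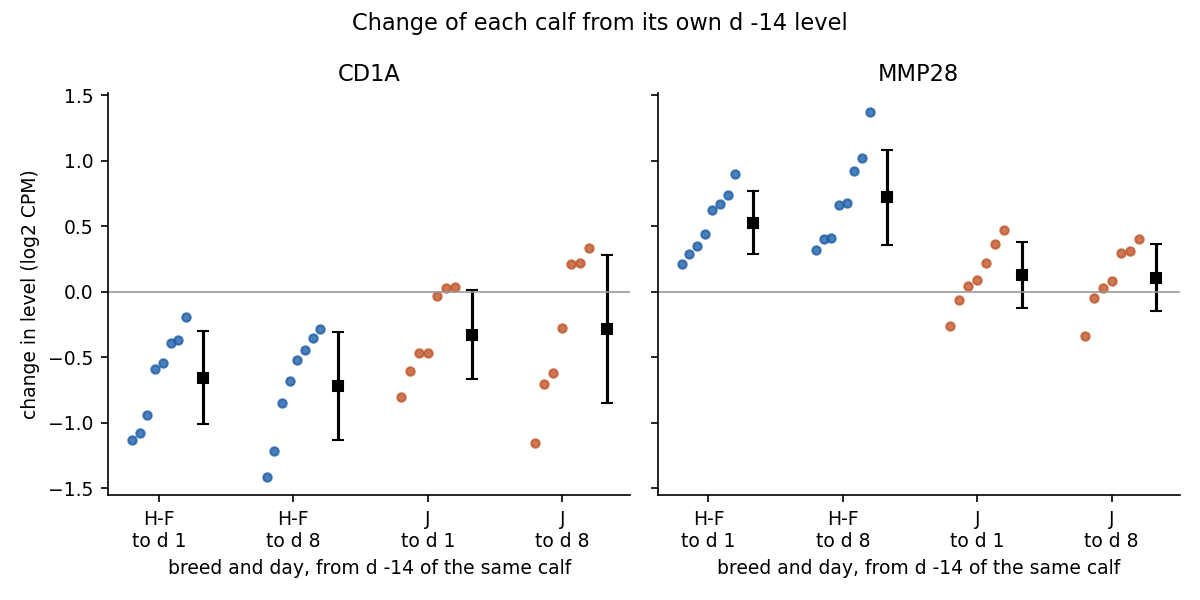
Change of each calf from its own d -14 level in log2 CPM, CD1A on the left and MMP28 on the right, for H-F (blue) and J (orange) calves to d 1 and d 8. Each point is a calf, sorted from lowest to highest, and the black squares with bars are mean ± SD. All 8 H-F calves lie below 0 for CD1A and above 0 for MMP28 on either day, and J calves lie on both sides of 0.

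The counts of all genes were fitted together with edgeR's quasi-likelihood method, with 1 mean per breed and day and no calf term. Genes were called DEG at an adjusted p (Benjamini-Hochberg) under 0.1 where the fold change was also 1.5 or more, or 0.585 in log2. No call of CD1A or MMP28 is given for the changes from d -14 or for the breed levels, which chose the genes. Without the calf term, CD1A in H-F calves had a log2 fold change of -0.78 (SE 0.60) from d -14 to d 1 and -0.86 (SE 0.60) to d 8. MMP28 had 0.51 (SE 0.16) to d 1 and 0.71 (SE 0.16) to d 8. Of the 12677 genes, 0% were called in H-F calves from d -14 to d 1 and 0.071% to d 8, which was 9 genes, 2 higher and 7 lower. With a calf left out, the fitted MMP28 value to d 8 ran from 0.62 to 0.77 and that of CD1A from -0.97 to -0.63.

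Each calf gave a library on every day, so a fit with calf as a block was set beside it. The block left the fold changes nearly as they were and narrowed the SE, most of all for CD1A, whose spread lay between calves. CD1A in H-F calves then had -0.72 (SE 0.14) to d 1 and -0.79 (SE 0.14) to d 8, and MMP28 0.52 (SE 0.087) to d 1 and 0.72 (SE 0.086) to d 8. In this fit 0.252% of genes were called to d 1 (32 genes) and 1.08% to d 8 (137 genes). Ranked by H-F fold change with the block among the 12677 genes, CD1A was 19th from the most negative to d 1 and 22nd to d 8, and MMP28 was 61st from the most positive to d 1 and 49th to d 8. The limma-voom fit with calf as a random effect gave CD1A -0.72 and -0.76.

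In J calves with the block, CD1A had -0.30 (SE 0.19) to d 1 and -0.54 (SE 0.20) to d 8, and MMP28 0.13 (SE 0.089) and 0.11 (SE 0.089). By rank of the J fold change, CD1A was 97th from the most negative to d 1 and 51st to d 8. MMP28 was 1711th and 1566th from the most positive. The share of all genes called in J calves was 0% from d -14 to d 1 and 0% to d 8 without the calf term, and 0.0552% and 0.205% with the block. The J change minus the H-F change, with the block, was 0.42 (SE 0.24) to d 1 and 0.25 (SE 0.25) to d 8 for CD1A, and -0.39 (SE 0.12) and -0.61 (SE 0.12) for MMP28. With no calf term the CD1A differences were 0.53 and 0.23. That to d 1 was 0.31 without J calf 7, and that to d 8 was -0.000165 when H-F calf 33 was left out and 0.47 when J calf 7 was. These differences between breeds are built from the changes that chose the genes and were not tested.

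**Figure D4:**
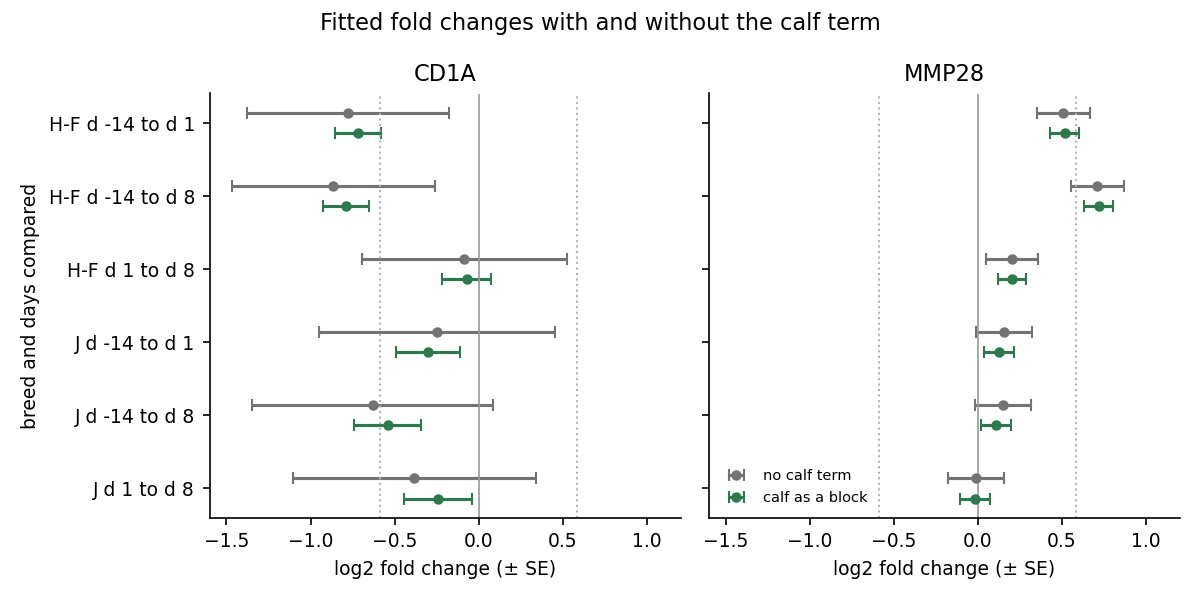
Fitted log2 fold changes with SE for CD1A (left) and MMP28 (right) in each breed and pair of days, without a calf term (grey) and with calf as a block (green). Dotted lines mark a fold change of 1.5 (0.585 in log2). The bars of CD1A in H-F calves shrink from an SE of 0.60 to 0.14 with the block, and from d 1 to d 8 every point lies between the dotted lines.

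The step from d 1 to d 8 was not itself used to choose the genes. It is the difference of the changes to d 1 and to d 8 that were, so its p-values are not independent of the choice. This step was tested over all genes with edgeR's quasi-likelihood test. CD1A did not pass it in H-F calves, with a log2 fold change of -0.09 (SE 0.61, adjusted p = 1), or in J calves, with -0.38 (SE 0.72, adjusted p = 1). MMP28 did not pass it either, at 0.20 (SE 0.16, adjusted p = 1) in H-F calves and -0.01 (SE 0.17, adjusted p = 1) in J calves. With calf as a block, edgeR gave MMP28 in H-F calves 0.20 (SE 0.084, unadjusted p = 0.0219, adjusted p = 0.549), with 7 of 8 calves higher on d 8 than on d 1, all but calf 49. CD1A in H-F calves had -0.07 (SE 0.14, adjusted p = 0.896) with the block, and 5 of 8 calves were lower.

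No gene was called from d 1 to d 8, which is 0% in either breed by either edgeR fit. At an unadjusted p under 0.05, edgeR counted 269 genes in H-F and 51 in J calves without the calf term, and 1097 and 285 with it. In J calves with the block, CD1A had -0.24 (SE 0.20, adjusted p = 1) and MMP28 -0.02 (SE 0.088, adjusted p = 1), again by edgeR. The sign of the CD1A value in J calves rested on calf 7, without which it was 0.07 in the fit without a calf term.

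The breed level was opposite for the genes, with CD1A lower and MMP28 higher in J calves. For CD1A the H-F mean was 3.75 times the J mean on d -14, 2.60 times on d 1 and 3.21 times on d 8. The breeds overlapped on each day. On d -14, 4 of 8 H-F calves lay above every J calf and 2 of 7 J calves below every H-F calf, while H-F calf 48, at 0.194 CPM, was among the J calves with least CD1A. On d 8, 6 of 8 H-F calves lay above every J calf and calf 48 lay below them all.

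The fitted J minus H-F value of CD1A was -1.90 (SE 0.66) on d -14, -1.37 (SE 0.67) on d 1 and -1.67 (SE 0.68) on d 8. The share of all genes called between breeds was 4.1% on d -14, 3.73% on d 1 and 3.13% on d 8. With a calf left out, the CD1A value on d -14 ran from -2.32 without J calf 7 to -1.46 without H-F calf 33.

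For MMP28 the breeds were apart before weaning and overlapped after it. On d -14 the highest H-F calf, 8.38 CPM, lay below the lowest J calf, 8.87 CPM, and the J mean was 1.85 times the H-F mean. The breed level helped choose MMP28, and the share of all genes that separate the breeds fully was not counted. On d 1, 4 of 8 H-F calves lay within the J range and the ratio of means was 1.45. On d 8, 6 of 8 did, with a ratio of 1.25. The fitted J minus H-F value was 0.88 (SE 0.16) on d -14, 0.53 (SE 0.16) on d 1 and 0.32 (SE 0.16) on d 8. The H-F mean of 10.7 CPM on d 8 was still below the J mean of 12.1 CPM on d -14.

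H-F calves largely kept their order in CD1A level across the days, while the level itself fell. Correlations were tested by two-sided exact permutation, with Benjamini-Hochberg adjustment over 16 relations, of which 3 (CD1A levels in J calves) are not given. The paired changes, which helped choose the gene, had an SD of 0.35 and 0.41, small beside the log2 SD of 1.57 between calves on d -14. Such values alone give a high r, so the p-values for CD1A are not independent of the choice. In H-F calves the CD1A level on d -14 correlated with that on d 1 (Pearson r = 0.976, exact permutation p = 0.000174, adjusted p = 0.00106, Spearman rho = 0.976, p = 0.000397, n = 8) and on d 8 (r = 0.967, exact permutation p = 0.000198, adjusted p = 0.00106, rho = 0.952, p = 0.00114). Without the 2 calves farthest from the median, r was 0.935 and 0.966. The d 1 and d 8 levels had r = 0.992 (exact permutation p = 4.96e-05, adjusted p = 0.000794, rho = 0.976, p = 0.000397), and r = 0.957 without 2 calves.

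No pooled correlation is given for CD1A in J calves, since their levels fell into the set of 4 and the set of 3 calves described, too few for a correlation within either. The sets themselves did not mix on any day: calves 7, 9, 13 and 60 were at 0.617 CPM or more and calves 6, 57 and 77 at 0.277 CPM or less.

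MMP28 levels of the same H-F calf were less closely correlated across the days than CD1A levels. For d -14 against d 8 they correlated at r = 0.333 (exact permutation p = 0.408, adjusted p = 0.544, rho = 0.262, p = 0.536, n = 8), between d -14 and d 1 r = 0.739 (exact permutation p = 0.0475, adjusted p = 0.0691, rho = 0.595, p = 0.132), and between d 1 and d 8 r = 0.779 (exact permutation p = 0.0258, adjusted p = 0.0451, rho = 0.762, p = 0.0368). Without 2 calves these were 0.701, 0.781 and 0.399, so the values of d -14 with d 8 and of d 1 with d 8 depended on the calves left out. The log2 SD of MMP28 between H-F calves on d -14 was 0.35, against 1.57 for CD1A. Its paired changes had an SD of 0.24 to d 1 and 0.36 to d 8, no wider than those of CD1A. The lower r is therefore not a wider change within calves. The paired changes helped choose MMP28 too, so these p-values are not independent of the choice. In J calves the same 3 relations had r = 0.883 (exact permutation p = 0.00337, adjusted p = 0.00714, rho = 0.893, p = 0.0123, n = 7), 0.792 (exact permutation p = 0.0282, adjusted p = 0.0451, rho = 0.857, p = 0.0238) and 0.974 (exact permutation p = 0.000397, adjusted p = 0.00159, rho = 0.964, p = 0.00278). Without 2 calves, which left 5, the J values were 0.789, 0.615 and 0.923. Whether the breeds differed in these correlations was not tested.

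The change of CD1A was set beside that of MMP28 in the same calves. Both changes helped choose the genes, so the p-values of their correlation are not independent of the choice. H-F calf 33 had the widest CD1A change and the second widest MMP28 change on either day. Over the H-F calves the changes had r = -0.04 to d 1 (exact permutation p = 0.932, adjusted p = 0.932, rho = 0.02, p = 0.977, n = 8) and r = -0.18 to d 8 (exact permutation p = 0.669, adjusted p = 0.714, rho = 0, p = 1). Without 2 calves these were 0.17 and 0.51, and to d 8 without calf 48, which held 6 reads of CD1A on d -14, r was -0.79. In J calves they were 0.23 (exact permutation p = 0.611, adjusted p = 0.698, rho = 0.18, p = 0.713, n = 7) and -0.32 (exact permutation p = 0.482, adjusted p = 0.593, rho = -0.43, p = 0.354), and 0.71 and -0.30 without 2 calves.

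The genes whose levels were most like MMP28 over the 45 libraries were, among the 695 with a symbol, KCNN4 (r = 0.917), a calcium-activated potassium channel, MS4A1 (r = 0.909), which encodes CD20 of B cells, CD22 (r = 0.867), a B cell lectin receptor, BANK1 (r = 0.865), a B cell scaffold protein, and SNX22 (r = 0.86), a sorting nexin. KCNN4 and MS4A1 were also the first and second of all 12677 genes. Within H-F libraries alone r was 0.892 for KCNN4 and 0.83 for MS4A1, and within J libraries 0.879 and 0.917. These r are descriptions: the libraries share calves, breeds and days, and the genes with a symbol were those the study listed as differing between breeds.

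The likeness held for change as well as for level. For the change of a calf from d -14 to the mean of d 1 and d 8 over the 15 calves, the symbols most like MMP28 were MS4A1 (r = 0.904), KCNN4 (r = 0.897), BOLA-DOB (r = 0.867), an MHC class II chain of B cells, SNX22 (r = 0.83) and FCRL1 (r = 0.829), a B cell Fc receptor-like protein. In H-F calves alone MS4A1 had r = 0.847 and KCNN4 r = 0.923, and in J calves 0.783 and 0.867.

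B cell markers moved with MMP28. Of the 5 B cell markers used here, 4 had an identifier (CD79B, MS4A1, PAX5 and CD22), and none was at 0 in any group. Their summed level in H-F calves ran from 424 to 863 CPM on d -14 (median 690), from 601 to 1020 CPM on d 1 (median 793) and from 689 to 978 CPM on d 8 (median 839). The sum was higher than on d -14 in 8 of 8 H-F calves on either day, by 0.32 ± 0.23 to d 1 and 0.41 ± 0.29 to d 8 on the log2 scale (SD, n = 8). In J calves it ran from 755 to 1260 CPM on d -14 (median 1050), from 722 to 1600 CPM on d 1 (median 1060) and from 808 to 1540 CPM on d 8 (median 1100), and changed by 0.02 ± 0.18 to d 1 and 0.06 ± 0.14 to d 8 (n = 7).

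MMP28 was higher by more than the sum in H-F calves, by 0.21 ± 0.12 to d 1, with all 8 calves above it, and by 0.31 ± 0.26 to d 8, with 7 of 8 above it (log2, SD, n = 8). In J calves the excess was 0.11 ± 0.17 and 0.05 ± 0.17 (n = 7). Over calves, the change of MMP28 and that of the sum had r = 0.871 to d 1 and 0.711 to d 8 among H-F calves, with 0.727 and 0.778 among J calves. MMP28 was 1.03% ± 0.173 of the sum in H-F calves on d -14, 1.19% ± 0.19 on d 1 and 1.28% ± 0.176 on d 8, and 1.17% ± 0.0682, 1.26% ± 0.166 and 1.22% ± 0.161 in J calves. By this ratio the breeds overlapped on d -14, from 0.787% to 1.32% in H-F and from 1.09% to 1.26% in J calves. The part of B cell RNA in the MMP28 values was not tested.

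**Figure D5:**
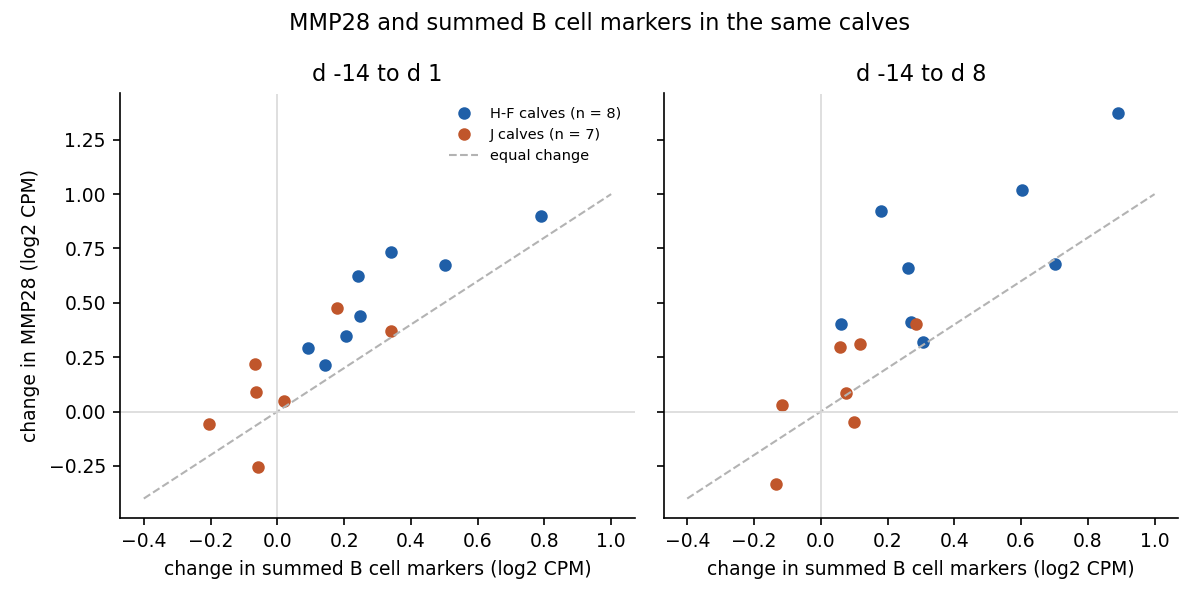
Change of MMP28 against the change of the summed level of 4 B cell markers in the same calf, both in log2 CPM from d -14, to d 1 on the left and to d 8 on the right, with H-F calves in blue and J calves in orange. The dashed line marks equal change. The 8 H-F calves lie above the line on d 1 and 7 of them on d 8, and J calves lie on both sides of it.

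None of the 4 B cell markers reached both thresholds in a day contrast, with or without the block. With the block, edgeR's adjusted p passed in H-F calves but the fold change fell short of 1.5 for MS4A1 to d 1 (log2 0.42, SE 0.067, adjusted p = 0.00216) and to d 8 (0.49, SE 0.067, adjusted p = 3.37e-05), for CD79B (0.24, adjusted p = 0.0715, and 0.36, adjusted p = 0.000839), and for CD22 to d 8 (0.37, adjusted p = 0.00529). In the fit without the block all 4 had positive fitted values in H-F calves (median 0.25 to d 1 and 0.33 to d 8, against 0.003 and 0.009 over all genes). Between breeds on d -14 all 4 were called higher in J calves, where 4.1% of all genes were called, led by CD79B, a chain of the B cell receptor (log2 0.78, SE 0.17, edgeR adjusted p = 0.00423). MS4A1 had 0.68 (SE 0.16), PAX5, a B cell transcription factor, 0.66 (SE 0.17) and CD22 0.59 (SE 0.16). On d 1 and d 8 edgeR's quasi-likelihood test called none of them (log2 0.38 to 0.47 with adjusted p = 0.0515 to 0.14 on d 1, and 0.34 to 0.52 with adjusted p = 0.0571 to 0.171 on d 8). Of these, CD22 and CD79B on d 1 and PAX5 on d 8 passed the adjusted p and were short only of the fold threshold. Since the symbols came from the study's lists of genes that differed between breeds, this is not independent evidence of their direction.

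Markers of platelets and of other blood cells are given beside MMP28 for comparison. The chemokine gene PF4 of platelets was lower in J calves on each day, with -0.82 (SE 0.31), -1.26 (SE 0.31) and -1.47 (SE 0.32). NCR1, an activating receptor of NK cells, was called lower in J calves on d -14, with -0.66 (SE 0.19), and on d 8, with -0.74 (SE 0.19). The summed level of 3 platelet markers of 6 was higher than on d -14 in 8 of 8 H-F calves on d 1 and in 6 of 8 on d 8, by 0.30 ± 0.26 and 0.40 ± 0.48 (log2, SD). In J calves it was lower in 5 of 7 on d 1 and 6 of 7 on d 8, by -0.11 ± 0.23 and -0.18 ± 0.20. The 3 markers did not move alike in H-F calves. In the fit without the block PF4 had 0.39 to d 1 and 0.46 to d 8, PPBP 0.06 and -0.005, and GP9 -0.09 and 0.32. Monocytes, neutrophils, and eosinophils and basophils were represented by a single marker each, and T cells and red cells by none, so the mix of blood cells could be followed only in part.

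The genes whose levels were most like CD1A were less close to it than those of MMP28. Among symbols they were CREB3L1 (r = 0.769), a membrane-bound transcription factor, RET (r = 0.687), a receptor tyrosine kinase, CD209 (r = 0.654), a C-type lectin of dendritic cells and macrophages, MSR1 (r = 0.653), the macrophage scavenger receptor, and SCIN (r = 0.65), an actin-severing protein. Within H-F libraries RET had r = 0.699 and CD209 r = 0.693, and within J libraries 0.37 and 0.249. CREB3L1 had 0.7 and 0.673.

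For the change of a calf over weaning, the symbols most like CD1A were IL15RA (r = 0.801), the alpha chain of the interleukin 15 receptor, F2RL2 (r = 0.755), a thrombin receptor, XYLB (r = 0.728), a xylulokinase, SASH1 (r = 0.704), a scaffold protein, and FAM20C (r = 0.695), a secreted kinase. Among all genes these ranked 5, 9, 14, 23 and 27. They were other genes than those most like it in level. Within H-F calves IL15RA had r = 0.871 and F2RL2 0.84, and within J calves 0.626 and 0.837. The others were weaker in at least a single breed: XYLB had 0.867 in H-F and 0.205 in J calves, SASH1 0.589 and 0.535, and FAM20C 0.365 and 0.822. With 8 and 7 calves, and CD1A near its counting limit in several, such values are imprecise.

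Dendritic cell markers were set beside CD1A. Of 22 listed, 4 had an identifier: BATF3, a transcription factor of type 1 dendritic cells, CLEC10A, a lectin of type 2 dendritic cells, FLT3, a cytokine receptor, and CD83, a maturation marker. None was at 0 in any group. Their summed level in H-F calves had a median of 39.6 CPM on d -14 (31.8 to 51.8), 36.8 CPM on d 1 (27.7 to 53.6) and 35.9 CPM on d 8 (28.7 to 51.1). In J calves the medians were 26.2 CPM (18.6 to 38.4), 25.2 CPM (22.2 to 28.5) and 27.2 CPM (19.5 to 31.1).

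The dendritic sum was lower than on d -14 in 6 of 8 H-F calves on d 1 and 7 of 8 on d 8, by -0.10 ± 0.21 and -0.16 ± 0.18 (log2, SD, n = 8). CD1A was lower by more, with a difference from the sum of -0.56 ± 0.50 to d 1 and -0.56 ± 0.44 to d 8, and lay below the sum in 8 of 8 and 7 of 8 calves. Most of the sum was FLT3 and CD83 (median 29.9 CPM in H-F calves on d -14). From BATF3 alone CD1A differed by -0.48 ± 0.40 and -0.62 ± 0.30, with 8 of 8 calves below it on either day. From CLEC10A alone it differed by only -0.24 ± 0.57 and -0.17 ± 0.81, with 4 of 8 and 6 of 8 calves below it. In J calves the sum was lower in 5 of 7 calves on either day, by -0.14 ± 0.27 and -0.16 ± 0.45, and the difference of CD1A from it was -0.19 ± 0.30 and -0.13 ± 0.58. The change of CD1A and that of the sum had r = -0.527 to d 1 and 0.06 to d 8 over the H-F calves, and 0.521 and 0.359 over the J calves. With the platelet sum, CD1A change had r = 0.763 and 0.471 over the H-F calves, whose sum was higher while CD1A was lower, and 0.796 and 0.628 over the J calves. The part of dendritic cell numbers or platelet RNA in the CD1A values was not tested.

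CLEC10A was low in the same breed as CD1A. Its fitted J minus H-F value was -2.42 (SE 0.39) on d -14, -2.27 (SE 0.40) on d 1 and -1.49 (SE 0.38) on d 8. The highest CLEC10A level of any J calf was 0.533 CPM on d -14, 0.435 CPM on d 1 and 0.479 CPM on d 8. CLEC10A thus passed the filter on low counts only through H-F calves, and its symbol came from the study's breed lists. For both reasons no test of its breed level is given. In H-F calves its fit with the block gave -0.39 (SE 0.18) to d 1 and -0.55 (SE 0.18, edgeR adjusted p = 0.0627) to d 8, short of the fold threshold. Calls of CD1A and MMP28 are not given. Of the 19 other matched genes of all lists, FLT3 was the only one called in a day contrast. It was lower in J calves from d -14 to d 8 with the block (-0.66, SE 0.13, edgeR adjusted p = 0.0188) and not called without it. Its breed value was -0.59 (SE 0.17) on d 8, called. BATF3 and CD83 were called lower in J calves on d 1, with -0.60 (SE 0.15) and -0.62 (SE 0.20).

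For the CD1 pathway, 2 of 33 listed symbols had an identifier, CD1A and GM2A, the activator protein that lifts glycolipids from membranes for loading and breakdown. GM2A was lower in J calves, with -0.73 (SE 0.17, edgeR adjusted p = 0.00672) on d -14, -0.82 (SE 0.17, adjusted p = 0.00349) on d 1 and -0.57 (SE 0.17, adjusted p = 0.0389) on d 8, the last short of the fold threshold. From d -14 to d 8 in H-F calves it had -0.32 (SE 0.082, edgeR adjusted p = 0.0171) with the block, also short of it. The direction was that of CD1A in both comparisons. The other CD1 molecules could not be matched to an identifier and are not analysed here, and reads shared by near-identical CD1 genes would not be counted, because only reads aligned to a single place were kept.

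For the matrix metalloproteinases, their inhibitors and their convertases, 2 of 33 listed symbols had an identifier, MMP28 and A2M, the plasma inhibitor alpha-2-macroglobulin. A2M was lower in J calves on d -14, with -0.60 (SE 0.15, edgeR adjusted p = 0.00845), opposite to MMP28. On d 1 and d 8 it had -0.47 and -0.49 (SE 0.15 each), short of the fold threshold. In H-F calves its fitted values with the block were -0.21 (SE 0.087) to d 1 and -0.22 (SE 0.087) to d 8, neither called. Of the 19 matched genes other than CD1A and MMP28 over all lists, 12 were called on d -14 between breeds, 4 higher and 8 lower in J calves, beside 4.1% of all genes. Their identifiers came from the study's tables of genes that differed between breeds, so this share follows from how they were matched. By either edgeR fit 0 of the 19 were called in H-F calves over days, where the block fit called 0.252% of all genes to d 1 and 1.08% to d 8.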

How the data were processed

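Blood RNA from 16 calves (8 of each breed) on 3 days was sequenced as poly(A) libraries. The authors aligned paired end reads to the bovine genome UMD3.1 with STAR after FastQC (version 0.10.0), kept reads with a single alignment, and assigned them to Ensembl genes by HTSeq-count. The deposited values are raw read counts per gene and for 92 ERCC spike-in sequences. The trimming, the strand setting and the STAR and HTSeq versions were not given in the sources used here. Labels placed each of the 48 columns, with 0 left over.

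Without J calf 85, 45 libraries remained. Spike-ins were removed, a filter of over 1 CPM in 8 or more libraries kept 12677 genes, and edgeR 4.0.16 (TMM, quasi-likelihood test, R 4.3.3) was fitted with a mean per breed and day and no calf term. A fit with calf as a block was the main alternative: after removal of breed and day means, libraries of the same calf correlated at 0.404 to 0.846 and those of different calves at -0.577 to 0.298, and the labels' calf numbers mark the same animal. The biological coefficient of variation was 0.185 without and 0.102 with the block. Paired changes are log2 CPM (prior count 2). Counting intervals are exact 95% intervals of a ratio of counts and cover counting error only. Other alternatives were DESeq2 1.42.0, edgeR's exact test, limma-voom (version 3.58.1 of limma, random calf effect, consensus correlation 0.441), RLE factors, filters, thresholds, all 16 calves, each calf left out and, chosen after seeing the data, scaling to ERCC totals. Tables used Python 3.11.15. The fits were tested on simulated data.

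The members and lists were chosen with earlier results of these data known. Symbols were taken from the study's tables of genes differing between breeds (695 symbols, all tested), so 21 of 147 listed symbols had an identifier. A further listed gene is not reported here. Named were the CD1 and metalloproteinase genes, list genes called (up to 6 a list), and for each member the 5 symbols most like it in level and in change. The marker sums were set beside the members after their values were seen. Sequences and genome positions were not used here.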

Additional observations from a re-analysis of the deposited data

How the results depend on the processing

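Of 64 results recomputed under the alternatives, the following changed sign. From d 1 to d 8, CD1A in J calves was -0.38 with no calf term, 0.1384 in limma-voom with a random calf effect, and -0.471 to 0.0748 when a calf was left out. MMP28 in J calves, at -0.01, was -0.0277 to 0.0222 when a calf was left out. The correlations of CD1A with MMP28 changes also crossed 0 with a calf left out. For H-F calves they ran from -0.327 to 0.196 to d 1 and from -0.794 to 0.0615 to d 8, and for J calves from -0.0115 to 0.466 to d 1 and from -0.563 to 0.0769 to d 8. The J minus H-F difference in CD1A change to d 8, 0.23, was -0.000165 without H-F calf 33 and 0.49 in limma-voom. The causes were not tested. The mean paired changes of both genes in each breed kept their sign under every scaling, prior count and calf left out. Scaling to ERCC totals gave CD1A in H-F calves -0.95 to d 8 in place of -0.72. Single calves did not all keep their direction under it. In H-F calf 49 the ERCC share was 0.1987% on d -14 and 0.3215% on d 8, a wider step than its MMP28 reads, 289 and 336. By ERCC totals MMP28 was therefore not higher on d 8 in that calf.

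With calf as a block, CD1A in H-F calves had -0.72 to d 1 and -0.79 to d 8, against -0.78 and -0.86 without it, and from d 1 to d 8 neither gene was called with or without the block. The number of DEG moved more than the members did. From d -14 to d 8 in H-F calves it was 9 without the calf term and 137 with the block, 135 in limma-voom, 22 in DESeq2, 20 in the exact test, 44 without a filter, 27 at a mean count of 10, 15 without a fold threshold, 5 with all 16 calves, 1 at an FDR of 5% and 0 to 16 with a calf left out. To d 1 it was 0, against 32 with the block, 18 in limma-voom, 7 without a filter and 7 at a mean count of 10. In J calves it was 0, against 7 and 26 with the block and 4 and 21 in limma-voom to d 1 and d 8. Between breeds, dropping the fold threshold gave 2174, 2282 and 1589 genes against 520, 473 and 397, and on d 1 the count was 284 without J calf 9 and 761 with all 16 calves. Low CD1A counts, 3 to 10 reads in J calves 6, 57 and 77 and H-F calf 48, limit what depth can show for this gene.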
